A study of Drosophila melanogaster with 8 samples.

Results

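The tetraspanin genes of Drosophila melanogaster were compared between a pair of cell lines. Members were all genes whose symbol is Tsp followed by a cytological band number, which gave 34 of the 17730 genes measured. The members lie on X (3), 2L (5), 2R (19), 3L (4) and 3R (3). Polyadenylated RNA was sequenced from 4 separate culture flasks of each line, and neither line carries a treatment or a transgene in its labels. ML-DmD17-c3, called D17-c3 here, was grown from larval imaginal discs, the epithelial sacs that form the adult appendages. S2-DRSC is a stock of Schneider's S2 line, which came from embryos and resembles hemocytes, the fly's blood cells. Each cell type is represented by a single line, so the origin of a line and its history in culture cannot be told apart.

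Tetraspanins are small proteins that cross the membrane several times and carry a large extracellular loop. In the membrane they bind each other and partner proteins such as integrins, adhesion molecules and membrane proteases, and they steer where these partners go and how active they are. Some fly members have known roles: Tsp3A, Tsp26A and Tsp86D belong to the TspanC8 type, which binds the ADAM10-type protease Kuzbanian and promotes cleavage of the receptor Notch, and Tsp2A builds the smooth septate junction of the gut. Much of the fly family sits in a tandem array on 2R, the Tsp42E cluster.

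The libraries held 76822525 to 110163700 expected counts, with 13667 to 14503 genes above 0. Correlations of log2 counts ran from 0.9764 to 0.9953 among the D17-c3 libraries and from 0.9943 to 0.9967 among the S2-DRSC libraries, against 0.843 to 0.8526 between the lines. The summed TPM (transcripts per 1000000, a level per length) of 8 hemocyte markers was 1581 to 1635 in S2-DRSC and 187 to 290 in D17-c3, and that of 8 disc epithelium markers was 455 to 571 in D17-c3 and 73.4 to 86.8 in S2-DRSC, where en and bi were under 0.1 TPM in every library. All 8 disc markers were called higher in D17-c3. Of the 8 hemocyte markers, Hml, Pxn, vkg, Col4a1 and eater were higher in S2-DRSC, srp was higher in D17-c3 (138 ± 21.6 against 94.4 ± 3.48 TPM) and NimC1 and He had no call, and all 8 had a mean of at least 1 TPM in both lines. The tracheal list had 86.4 to 180 TPM in D17-c3, nearly all of it from btl, with vvl under 0.1 TPM, and the neuron, muscle, gut and germline lists summed to at most 21.8 TPM in any library. In bulk RNA, fewer cells with a transcript and less of it per cell cannot be told apart.

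Each line expressed a broad set of tetraspanins with Tsp42Ee far ahead. A mean of at least 10 TPM was reached by 11 D17-c3 members and 12 S2-DRSC members, and at least 1 TPM by 21 and 19. A mean under 0.1 TPM was found for 7 members in D17-c3 and 9 in S2-DRSC. Tsp42Ee was first and Tsp42Ed second in both lines. In D17-c3, Tsp42Ed, Tsp42Ea, Tsp96F, Tsp86D and Tsp42Ef followed from 113 to 56.1 TPM, each overlapping with the next of these, and all libraries of Tsp42Ef lay above those of Tsp97E (32.1 ± 4.39 TPM). Next after these in S2-DRSC came Tsp3A (62.2 ± 2.42 TPM), which overlapped with Tsp42Ef (55.6 ± 3.26 TPM; SD, n = 4 here and for all means below). After Tsp97E, at 48.0 ± 4.02 TPM, Tsp86D, Tsp42Ea, Tsp39D and Tsp96F followed from 37.8 to 32.2 TPM, each overlapping with its neighbour in that order.

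**Figure D1:**
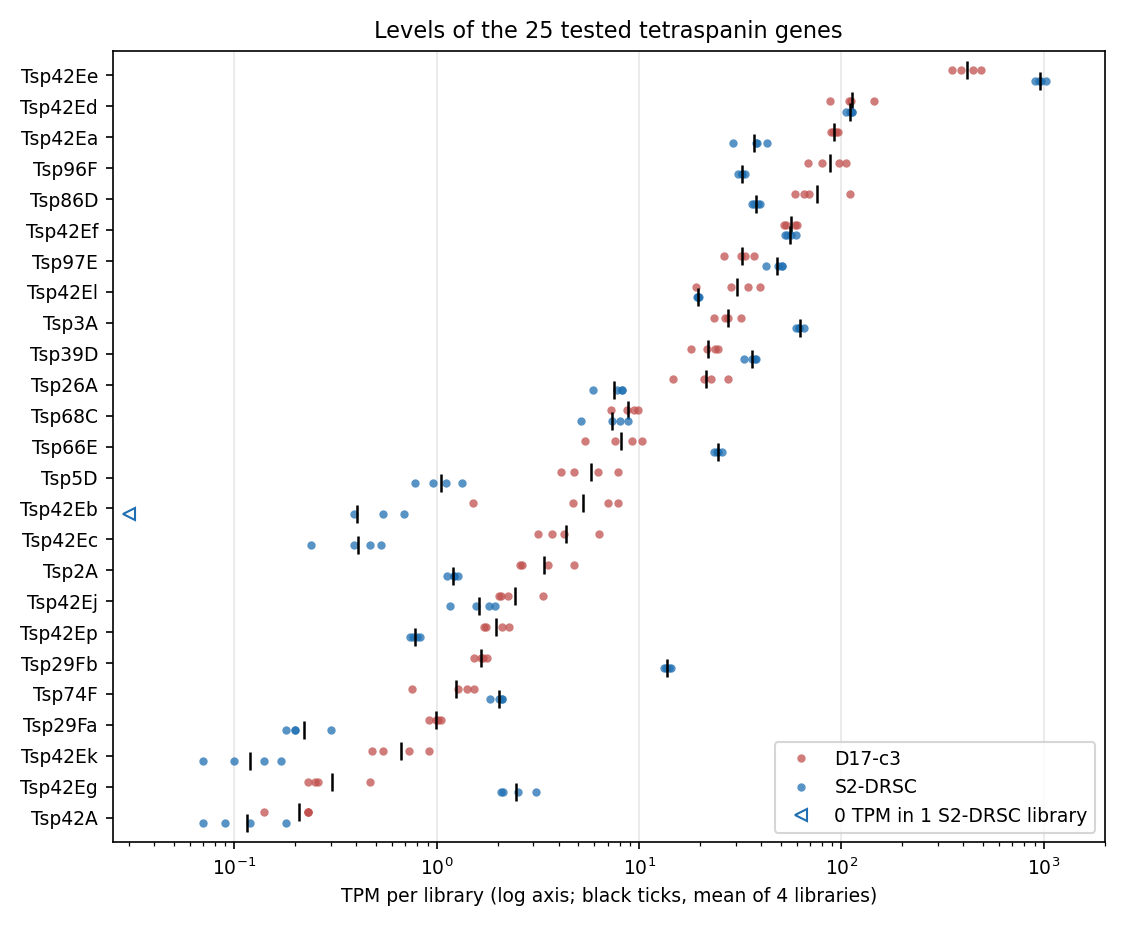
TPM of the 25 tested tetraspanin genes in every library on a log axis (points, 4 libraries per line in red for D17-c3 and blue for S2-DRSC; black ticks are means; the open triangle is the S2-DRSC library with 0 TPM of Tsp42Eb). Tsp42Ee leads both lines, and the red and blue points lie apart for most genes, in either order.

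The family differed between the lines in both directions. Of the 34 members, 25 had enough counts for the test, and 19 of these (76.0%) passed an adjusted p of 0.05 in edgeR's quasi-likelihood test, beside 75.2% of all 11606 genes tested. Higher in D17-c3 were 11 members, beside 39.1% of all genes, and higher in S2-DRSC were 8, beside 36.1%. A change of at least 2-fold was fitted for 10 and 5 of them, and 43.0% of all genes were called with a change of that size. The median log2 fold change (D17-c3 over S2-DRSC, on the count scale) was 0.42 over the tested members and 0.04 over all tested genes, and the median size of the change was 1.23 against 0.81. The CPM (counts per 1000000) of the lines did not overlap for 19 members, 11 of them above in D17-c3, and for 71.6% of all genes. Leaving out D17-c3 replicate 2, the library most often at an extreme of its line, gave 12 members higher in D17-c3 and 9 higher in S2-DRSC.

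**Figure D2:**
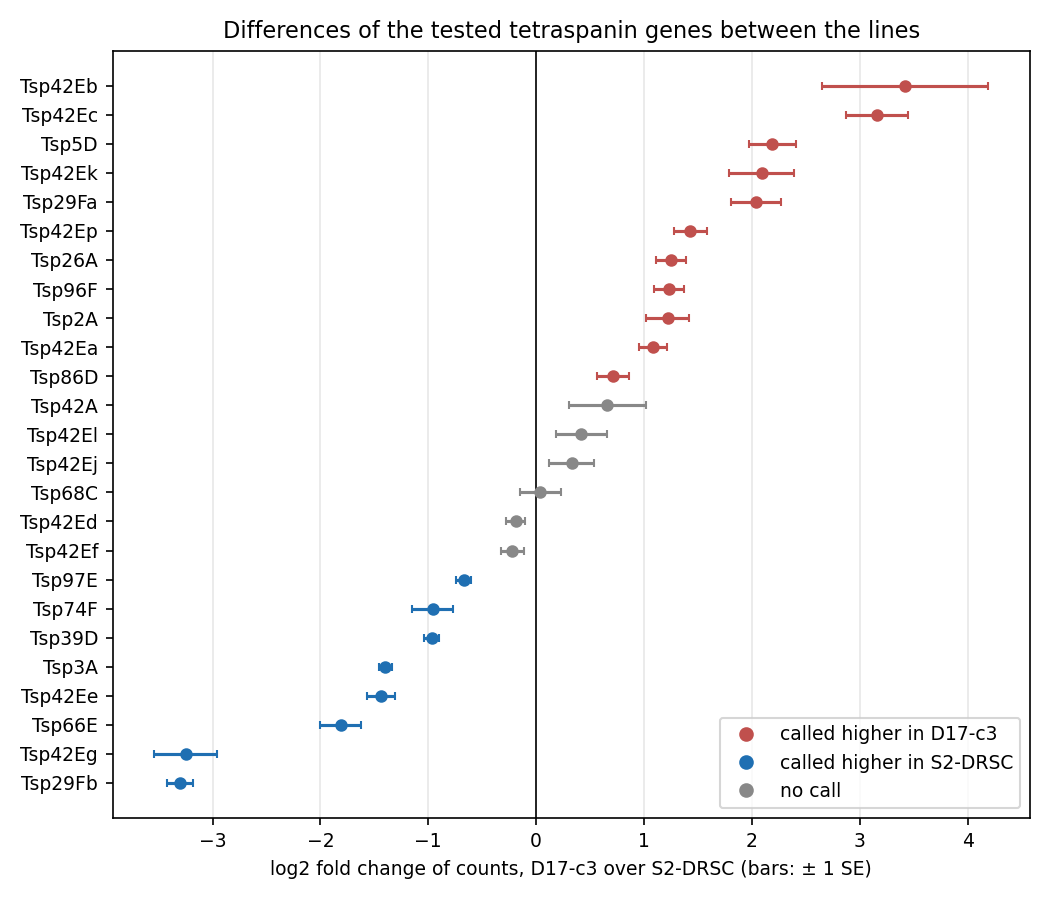
Log2 fold change of counts (D17-c3 over S2-DRSC) of each tested tetraspanin gene with bars of 1 SE from edgeR's quasi-likelihood test; red and blue points passed an adjusted p of 0.05, grey ones did not. The changes run from 3.42 for Tsp42Eb to -3.30 for Tsp29Fb, with 6 genes near 0 or with wide bars in grey.

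Summed over all 34 members, tetraspanin transcripts made up 1050, 1006, 929 and 1108 TPM in D17-c3 replicates 1 to 4 and 1417, 1460, 1469 and 1506 TPM in S2-DRSC. The S2-DRSC sums all lay above those of D17-c3. Without Tsp42Ee the sums were 602, 656, 541 and 617 TPM in D17-c3 and 509, 496, 518 and 486 TPM in S2-DRSC. TPM is not scaled between the lines, and dividing it by TMM factors moved every log2 ratio of D17-c3 over S2-DRSC down by 0.28. On that scale the sum without Tsp42Ee was 546 ± 7.17 in D17-c3 and 554 ± 3.76 in S2-DRSC with overlapping libraries, so the higher unscaled sum of D17-c3 rests on the scaling. The sum of all 34 was 928 ± 71.2 and 1610 ± 85 after scaling, still without overlap. Count fold changes were TMM-scaled throughout, and with library totals alone the median over all genes moved from 0.04 to 0.21 (log2). Tsp42Ee took 40.9% ± 4.17 of the family's TPM in D17-c3, against 65.6% ± 1.63 in the S2-DRSC libraries. The 17 members of the Tsp42E cluster together held 71.0% ± 2.59 and 81.2% ± 1.13.

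**Figure D3:**
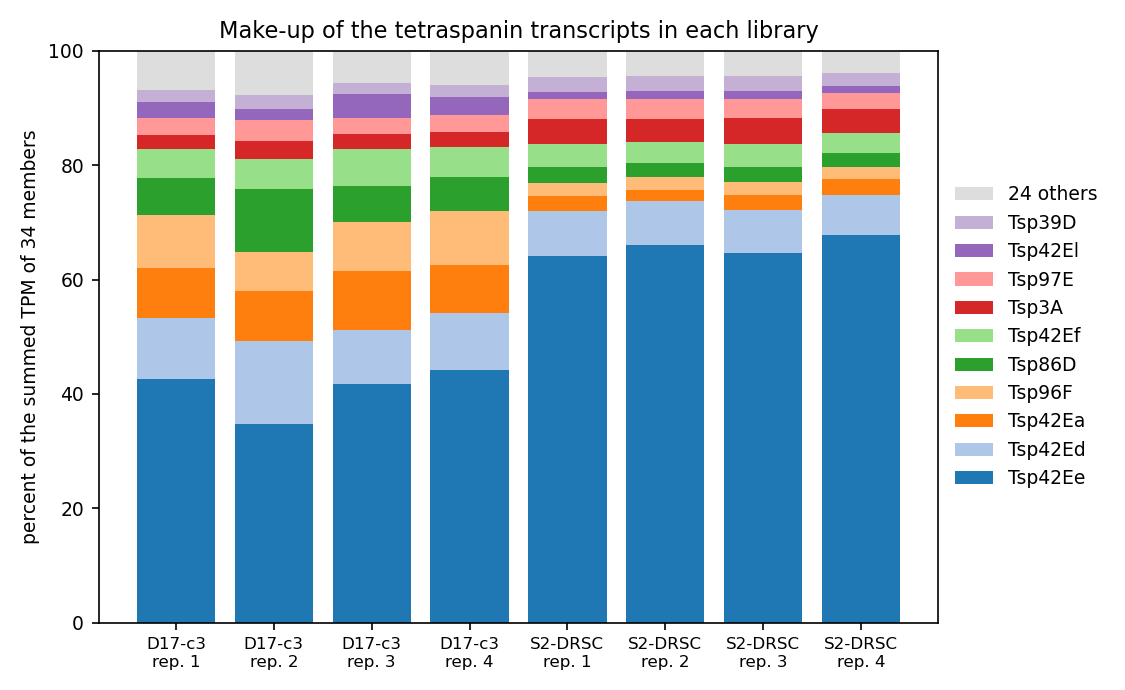
Share of the summed TPM of the 34 tetraspanin genes in each library (stacked bars, percent), with 10 genes shown singly and the 24 others in grey. The mean Tsp42Ee share is 40.9% in D17-c3, against 65.6% in the S2-DRSC libraries, and Tsp86D takes more in D17-c3 replicate 2 than in the others.

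The lines differed in which TspanC8 gene, a partner of Kuzbanian, was expressed most. Tsp3A (X:2617758-2619738, minus strand, in the BDGP6 assembly, which is dm6) had 26.7, 31.8, 23.6 and 27.6 TPM in D17-c3 and 61.8, 59.7, 65.5 and 61.9 TPM in S2-DRSC. All S2-DRSC libraries lay above all D17-c3 libraries, a log2 fold change of -1.40 ± 0.06 (SE, as after every fold change here; adjusted p = 6.85e-08 in edgeR). Tsp86D (3R:10868708-10870555, plus strand) had 69.0, 111, 58.7 and 65.4 TPM in D17-c3 and 39.4, 36.0, 38.7 and 37.0 TPM in S2-DRSC. Its level was higher in D17-c3, by 0.71 ± 0.15 on the log2 scale (edgeR adjusted p = 0.00191), with replicate 2 well above the other D17-c3 libraries. Tsp26A (2L:6000228-6003738, plus strand) had 22.7, 27.6, 14.7 and 20.9 TPM in D17-c3 against 7.80, 8.20, 8.27 and 5.93 TPM in S2-DRSC, without overlap. Its log2 fold change was 1.25 ± 0.14 (edgeR adjusted p = 2.56e-05), with 165 exon bases that it shares with Gal on the opposite strand. The expected counts of Tsp26A were not whole in any of the 8 libraries, so part of them was divided with another gene that was not identified.

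The sum of the TspanC8 genes was 125 ± 31.5 TPM in D17-c3 and 108 ± 3.98 TPM in S2-DRSC, and the libraries overlapped. This sum is in unscaled TPM, and the TMM scaling that moves log2 ratios of D17-c3 over S2-DRSC down by 0.28 was not applied to it. Within that sum, Tsp3A supplied 22.4% ± 2.64 in D17-c3 and 57.9% ± 1.03 in S2-DRSC, Tsp86D supplied 60.3% ± 3.44 and 35.1% ± 0.75, and Tsp26A 17.2% ± 1.86 and 7.05% ± 0.947. The leading TspanC8 transcript was therefore Tsp86D in every D17-c3 library and Tsp3A in every S2-DRSC library.

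Kuzbanian itself (kuz) had 242, 202, 194 and 260 TPM in D17-c3 and 81.1, 82.9, 81.3 and 74.0 TPM in S2-DRSC. It was higher in D17-c3 by 1.30 ± 0.11 on the log2 scale (edgeR adjusted p = 2.80e-06). Of the 8 ADAM proteases and γ-secretase genes, which cut Notch after its ligand binds or belong to the same enzyme families, 4 were higher in D17-c3, 1 was higher in S2-DRSC and 3 had no call, and the median was 0.13 on the log2 scale. Tace, another ADAM protease, was low in both lines (0.752 ± 0.237 and 0.118 ± 0.0608 TPM) and higher in D17-c3 by 2.48 ± 0.41. The γ-secretase subunits Nct and Psn were higher in D17-c3 by 0.37 ± 0.08 and 0.18 ± 0.05 (edgeR adjusted p = 0.00251 and 0.0133), while aph-1 and pen-2 had no call. Across alternative settings, 3 to 6 genes of this list were higher in D17-c3. Meltrin, the ADAM gene of the list that was higher in S2-DRSC, had 71.5 ± 11.6 TPM in D17-c3 and 341 ± 12.7 TPM in S2-DRSC (log2 fold change -2.21 ± 0.07).

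Tsp2A (X:1346553-1348143, plus strand), which anchors the smooth septate junction together with Ssk, Mesh and Hoka, was a low transcript in both lines. It had 3.56, 4.74, 2.63 and 2.57 TPM in D17-c3 and 1.22, 1.27, 1.22 and 1.12 TPM in S2-DRSC. The whole span of Tsp2A, 1591 bases, lies within that of MTPAP on the opposite strand, without shared exon bases. Whether MTPAP reads entered the level of Tsp2A was not tested. For Tsp2A, all D17-c3 libraries were above all S2-DRSC libraries (log2 fold change 1.22 ± 0.20, edgeR adjusted p = 3.35e-04). Its partner Ssk went the other way, with 0.21 ± 0.0424 TPM in D17-c3 and 2.5 ± 0.273 TPM in S2-DRSC (log2 fold change -3.83 ± 0.23, edgeR adjusted p = 3.28e-07). For mesh, at 0.328 ± 0.075 and 0.237 ± 0.034 TPM, there was no call, and the hoka gene, listed as CG13704, had no more than 3 counts in a library and was not tested.

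The Tsp42E cluster spans 73.4 kb of 2R (6992676 to 7066113), with 27 genes in all. Its 17 members by symbol are transcribed from the plus strand except for 3. Of the 11 tested, 5 were higher in D17-c3, 2 were higher in S2-DRSC and 4 had no call, so 63.6% were called, beside 75.2% of all genes (39.1% and 36.1% by direction). Read along the chromosome, Tsp42Ea, Tsp42Eb and Tsp42Ec were higher in D17-c3, Tsp42Ed had no call, Tsp42Ee was higher in S2-DRSC, Tsp42Ef had no call and Tsp42Eg was higher in S2-DRSC. After the untested Tsp42Eh and Tsp42Ei came Tsp42Ej with no call, Tsp42Ek higher in D17-c3 and Tsp42El with no call. At the far end only Tsp42Ep, higher in D17-c3, had enough counts.

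**Figure D4:**
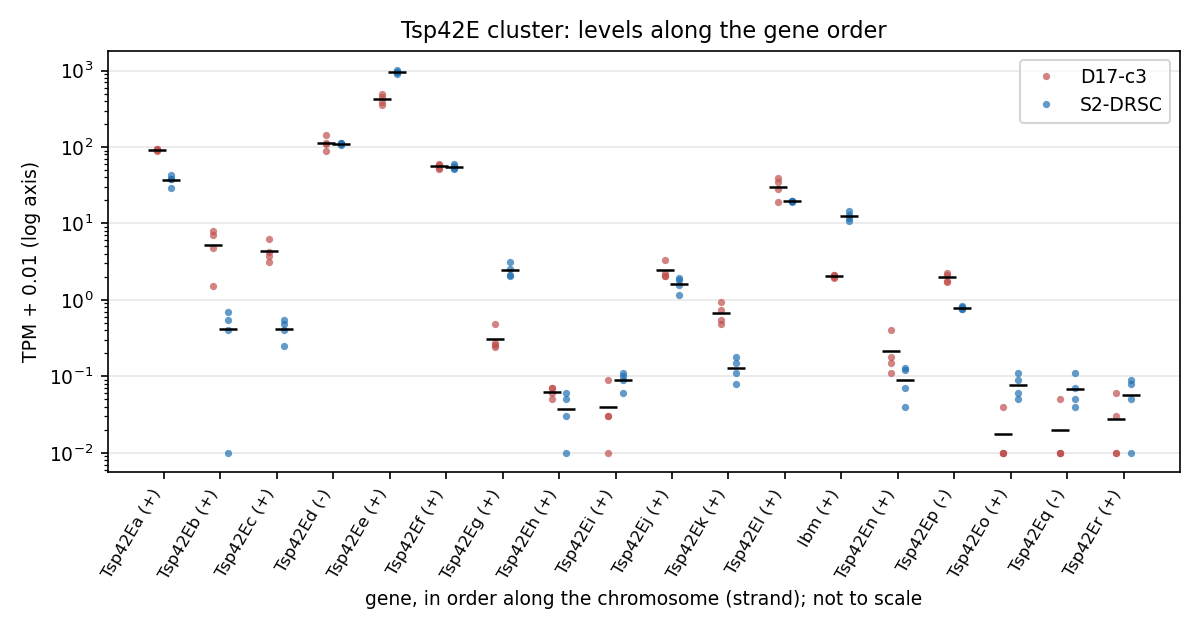
TPM plus 0.01 (log axis) of the 17 Tsp42E genes and lbm in their order along 2R, with 4 libraries per line (points) and means (bars); strand is in parentheses and distances are not drawn. Tsp42Ee stands highest in both lines between Tsp42Ed and Tsp42Ef, and genes higher in D17-c3 stand beside genes higher in S2-DRSC.

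Tsp42Ee (2R:7012254-7018362) had 448, 350, 388 and 490 TPM in D17-c3 and 908, 964, 950 and 1020 TPM in S2-DRSC. Every S2-DRSC library lay above every D17-c3 library, with a log2 fold change of -1.44 ± 0.13 (edgeR adjusted p = 5.25e-06). Its upstream neighbour Tsp42Ed (2R:7009498-7011739, minus strand) had 112, 145, 87.8 and 109 TPM in D17-c3 and 113, 112, 111 and 105 TPM in S2-DRSC. The S2-DRSC values fell within the range of D17-c3, and the log2 fold change of -0.19 ± 0.09 missed the threshold (edgeR adjusted p = 0.0798). Without D17-c3 replicate 2, the highest library, it was -0.29 (adjusted p = 7.52e-04 in edgeR). The other neighbour of Tsp42Ee, Tsp42Ef (2R:7025010-7028082), had 51.8 to 60.5 TPM in D17-c3 and 52.3 to 59.8 TPM in S2-DRSC. Its fold change of -0.22 ± 0.11 missed the threshold as well (edgeR adjusted p = 0.0907). Without D17-c3 replicate 3 it was -0.33 and passed (edgeR adjusted p = 0.00375). With all libraries kept, Tsp42Ed and Tsp42Ef both passed without a filter on low counts (edgeR adjusted p = 0.0435 and 0.0447). Both also passed with limma on TMM-scaled TPM (adjusted p = 0.0309 and 0.0378), and Tsp42Ef passed with the replicate block (edgeR adjusted p = 0.0476).

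Tsp42Ea (2R:6992676-7004259), the first gene of the cluster, had 90.7, 88.9, 95.6 and 93.5 TPM in D17-c3 and 37.8, 29.0, 38.1 and 42.7 TPM in S2-DRSC. The lines lay apart, with a log2 fold change of 1.08 ± 0.13 (edgeR adjusted p = 5.37e-05). Tsp42Ec (2R:7006442-7008622) was lower throughout, with 4.26, 6.31, 3.15 and 3.73 TPM in D17-c3 and 0.39, 0.24, 0.47 and 0.53 TPM in S2-DRSC. It was higher in D17-c3 by 3.16 ± 0.29 on the log2 scale (edgeR adjusted p = 6.41e-06).

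Tsp42Eb (2R:6998848-6999848), which lies within the span of Tsp42Ea without sharing exon bases, had 7.02, 7.88, 1.51 and 4.72 TPM in D17-c3 and 0.54, 0.00, 0.39 and 0.69 TPM in S2-DRSC. Its log2 fold change of 3.42 was the largest of the members higher in D17-c3 and also the least precise (SE 0.77, edgeR adjusted p = 0.0026). The D17-c3 library with 1.51 TPM and the S2-DRSC library with 0 were the only ones in which CG30160, a gene 7005157 to 7006136 on the same strand, had counts. CG30160 has the same lengths as Tsp42Eb for its second exon (165 bases), its last exon (366 bases) and both introns (64 and 72 bases). In D17-c3 replicate 3 the expected counts were 67.48 for Tsp42Eb and 106.52 for CG30160, which add up to a whole number, 174. In S2-DRSC replicate 2, Tsp42Eb had 0 counts and CG30160 had 31. Summed, the pair of genes had 326, 330, 174 and 204 counts in D17-c3 and 28, 31, 21 and 33 in S2-DRSC. The sum was higher in D17-c3 by 3.18 ± 0.27 on the log2 scale (edgeR adjusted p = 3.49e-06), and it varied less between flasks of S2-DRSC than Tsp42Eb did. In every library but D17-c3 replicate 3, the counts of the pair went wholly to either gene. The level of Tsp42Eb alone is therefore uncertain in every library.

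Tsp42Eg (2R:7028911-7033233) had 0.47, 0.23, 0.26 and 0.25 TPM in D17-c3 and 2.52, 2.07, 2.12 and 3.10 TPM in S2-DRSC. All S2-DRSC libraries were above all D17-c3 libraries (log2 fold change -3.25 ± 0.29, edgeR adjusted p = 5.29e-06). Tsp42Ek (2R:7042656-7044710) had 0.73, 0.92, 0.48 and 0.54 TPM in D17-c3 and 0.17, 0.10, 0.14 and 0.07 TPM in S2-DRSC, where it rested on as few as 5 counts in a library. It was higher in D17-c3, by 2.09 ± 0.30 on the log2 scale (edgeR adjusted p = 1.56e-04).

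Tsp42Ej (2R:7040136-7042762), known as sunglasses for its lysosomal role in the fly photoreceptor, overlaps the start of Tsp42Ek by 107 exon bases on the same strand. It had 2.04, 3.35, 2.07 and 2.26 TPM in D17-c3 and 1.93, 1.16, 1.57 and 1.82 TPM in S2-DRSC. No call was made for it (log2 fold change 0.33 ± 0.21, edgeR adjusted p = 0.186). The CPM of the lines overlapped although the TPM values did not. Tsp42El (2R:7045769-7048538) had 28.4, 19.1, 39.4 and 34.5 TPM in D17-c3 and a narrow 19.2 to 19.7 TPM in S2-DRSC. With D17-c3 replicate 2 at the S2-DRSC level, its fold change of 0.42 ± 0.24 was not called (edgeR adjusted p = 0.137), and without that library it was 0.61 (adjusted p = 0.00209). Tsp42Ep (2R:7054405-7057548, minus strand) had 2.10, 1.71, 1.75 and 2.27 TPM in D17-c3 and 0.76, 0.74, 0.83 and 0.80 TPM in S2-DRSC, an increase in D17-c3 of 1.43 ± 0.15 on the log2 scale (edgeR adjusted p = 1.51e-05).

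The remaining genes of the cluster carry other names. The gene lbm (late bloomer), a tetraspanin of motor neurons that helps the nerve terminal form its synapse, lies between Tsp42El and Tsp42En. It had 2.11, 2.11, 1.92 and 2.00 TPM in D17-c3 and 11.7, 10.8, 14.6 and 12.9 TPM in S2-DRSC, without overlap (log2 fold change -2.86 ± 0.14, edgeR adjusted p = 9.03e-08). Of the 5 neuron markers, elav (9.26 to 11.5 TPM in D17-c3, 11.6 to 13.4 TPM in S2-DRSC), brp (0.12 to 0.27 and 7.40 to 8.11 TPM) and para (at most 0.21 TPM) were also called higher in S2-DRSC, while nSyb and Syt1 were under 0.5 TPM in every library with no call. Their part in the lbm result was not tested. TM4SF, the other superfamily gene without a Tsp symbol, lies outside the cluster. It went the opposite way to lbm, with 6.46 ± 1.45 TPM in D17-c3 and 0.122 ± 0.0556 TPM in S2-DRSC (log2 fold change 5.38 ± 0.35, edgeR adjusted p = 6.64e-07). Among the other neighbours in the span, CG30159 and the pseudogene CR42785 were higher in D17-c3 by 0.52 ± 0.07 and 2.77 ± 0.46. CG43646, CG43647 and CG33914 were higher in S2-DRSC, with log2 fold changes of -1.61 ± 0.27, -2.28 ± 0.32 and -1.58 ± 0.30. All but CG30159 were near the floor. CR42785 had at most 8 counts in an S2-DRSC library, and CG43646, CG43647 and CG33914 at most 19, 11 and 11 in a D17-c3 library. The TPM of CG33914 overlapped between the lines. The pseudogene CR12842 had no call (log2 fold change -0.59 ± 0.29). Pgant3, a glycosyltransferase gene in the span, had 25.9 ± 2.49 TPM in D17-c3 and 22.1 ± 0.901 TPM in S2-DRSC and a log2 fold change of -0.01 ± 0.08 with no call.

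The neighbours Tsp29Fa and Tsp29Fb, 1293 bases apart on the plus strand of 2L (8933962-8936096 and 8937390-8939743), differed in opposite directions. Tsp29Fa had 0.92, 1.01, 0.99 and 1.05 TPM in D17-c3 and 0.30, 0.20, 0.18 and 0.20 TPM in S2-DRSC, a log2 fold change of 2.04 ± 0.23 (edgeR adjusted p = 2.72e-05) at 11 to 59 counts a library. Tsp29Fb had 1.53, 1.77, 1.65 and 1.70 TPM in D17-c3 and 14.4, 14.0, 13.5 and 13.3 TPM in S2-DRSC. Its log2 fold change of -3.30 ± 0.12 was the largest toward S2-DRSC among the tested members and had the smallest adjusted p of them (1.37e-08 in edgeR). The ratio of Tsp29Fb to Tsp29Fa was 1.7 ± 0.0816 in D17-c3 and 64.9 ± 11.9 in S2-DRSC. Tsp29Fa shares 745 exon bases with a noncoding RNA on the opposite strand, asRNA:CR46071.

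Of the members outside the Tsp42E cluster and not yet described, Tsp96F and Tsp5D were higher in D17-c3. Tsp96F (3R:25872900-25881427, minus strand) had 97.0, 68.1, 79.8 and 105 TPM in D17-c3 and 32.4, 33.4, 32.3 and 30.8 TPM in S2-DRSC. All D17-c3 libraries were above all S2-DRSC libraries (log2 fold change 1.23 ± 0.14, edgeR adjusted p = 2.41e-05). Tsp5D (X:6069131-6074857, minus strand) had 6.25, 7.88, 4.11 and 4.77 TPM against 0.96, 0.78, 1.11 and 1.33 TPM. That was a log2 fold change of 2.19 ± 0.22 (edgeR adjusted p = 1.22e-05), again without overlap.

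Besides Tsp3A, the members higher in S2-DRSC that lie outside the cluster and the Tsp29F pair were Tsp66E, Tsp39D, Tsp74F and Tsp97E. Tsp66E (3L:8912499-8932065, plus strand) had 9.20, 5.43, 7.60 and 10.3 TPM in D17-c3 and 24.3, 25.6, 24.6 and 23.5 TPM in S2-DRSC (log2 fold change -1.81 ± 0.19, edgeR adjusted p = 1.74e-05). Tsp39D (2L:21344607-21358271, plus strand) had 21.5, 23.7, 18.01 and 24.4 TPM in D17-c3 and 36.0, 38.0, 37.4 and 33.1 TPM in S2-DRSC (log2 fold change -0.97 ± 0.07, edgeR adjusted p = 1.22e-06). The lines lay apart for these genes as they did for the next pair. Tsp74F (3L:17891820-17895862, minus strand) had 1.52, 1.41, 0.75 and 1.27 TPM in D17-c3 and 2.09, 2.11, 2.04 and 1.84 TPM in S2-DRSC (log2 fold change -0.96 ± 0.19, edgeR adjusted p = 0.00109). Tsp97E (3R:26961064-26964817, minus strand) had 31.8, 36.8, 26.3 and 33.5 TPM in D17-c3 and 48.4, 50.7, 50.6 and 42.2 TPM in S2-DRSC (log2 fold change -0.67 ± 0.07, edgeR adjusted p = 1.72e-05).

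For Tsp68C (3L:13843656-13845316, plus strand) and Tsp42A (2R:5795413-5796710, plus strand) no call was made. Tsp68C had 9.84, 7.30, 9.47 and 8.71 TPM in D17-c3 and 7.33, 8.05, 8.79 and 5.17 TPM in S2-DRSC, with overlapping values and a log2 fold change of 0.04 ± 0.19 (edgeR adjusted p = 0.85). Tsp42A was near the limit of what these depths could measure, with 0.14 to 0.23 TPM in D17-c3, 0.07 to 0.18 TPM in S2-DRSC and as few as 4 counts in a library. Its fold change was 0.66 ± 0.36 (edgeR adjusted p = 0.129).

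The 9 members not tested were Tsp33B, Tsp42Eh, Tsp42Ei, Tsp42En, Tsp42Eo, Tsp42Eq, Tsp42Er, Tsp47F and Tsp66A, with at most 28 counts in any library. Tsp66A had 0 counts in all 4 S2-DRSC libraries, which allows up to 3 counts in each, and at most 1 count in D17-c3. All 2537 exon bases of Tsp66A are also exon bases of CG42661 and of CG42660 on the same strand. Shared reads can be assigned to those genes, so these counts do not bound the Tsp66A transcripts. Tsp47F had at most 1 count in a library of either line. Tsp42En had 0.14, 0.40, 0.17 and 0.10 TPM in D17-c3 and 0.03 to 0.12 TPM in S2-DRSC, and Tsp33B had 0.17, 0.25, 0.13 and 0.19 TPM in D17-c3 and 0.02 to 0.12 TPM in S2-DRSC. With no filter on low counts, Tsp42Ei, Tsp42Eo and Tsp42Eq passed the threshold toward S2-DRSC at no more than 8 counts in any library, and the other 6 did not pass it. Of those, Tsp33B came closest (edgeR adjusted p = 0.0715), and its TPM in every D17-c3 library lay above every S2-DRSC library.

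Some counts were divided between genes. Expected counts were whole, within 0.005, in all libraries for 24 members, and not whole in at least 1 library for 10. A whole count does not show that no reads were shared, since all shared reads can go to a single gene. In S2-DRSC replicate 2, Tsp42Eb had 0 counts and CG30160 had 31, both whole. Tsp66A and Tsp5D were whole in all libraries, though they share 2537 and 134 exon bases with other genes. For 9 of the 10, a nearby gene was not whole in the same libraries and the sum of both was whole in all 8, within 0.015. On the same strand these were Tsp42Ea with CG30159, Tsp42Eb with CG30160, Tsp42Ec with CR42785, and Tsp42Ej with Tsp42Ek. On opposite strands they were Tsp29Fa with asRNA:CR46071, Tsp42Ep with Tsp42Eo, and Tsp66E with mfr. The remaining member, Tsp26A, was not whole in any of the 8 libraries and had no such partner, so the division of its counts was not traced. The levels of all 10 members are therefore uncertain by the part that the estimate moved between the genes. With each pair summed, 24 members were tested, since Tsp42Ek was then counted with Tsp42Ej, and 11 of them were called higher in D17-c3 and 8 higher in S2-DRSC. Each sum holds all counts of both genes, not only the divided ones, so it blends their changes. Tsp42Ea changed from 1.08 to 0.79 ± 0.08, where CG30159 alone had 0.52 ± 0.07. Tsp42Ej with Tsp42Ek had 0.57 ± 0.21 (edgeR adjusted p = 0.0319), which passed the threshold that Tsp42Ej alone missed. Tsp42Ek alone had 2.09 ± 0.30, and the counts of this pair were not whole in only 1 library. For Tsp42Ec, Tsp29Fa, Tsp42Ep and Tsp66E the summed log2 fold changes were 3.11, 1.93, 1.36 and -1.81.

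The tables also give an average transcript length, weighted by the estimated abundance of a gene's annotated transcripts, which the choice of members did not use. It varied for 17 of the 25 tested members and was fixed for the 8 others. For 3 of the 17 the lines did not overlap and their means differed by at least 5%, a limit chosen after the values were seen, while 10.9% of the 6098 genes of varying length met the same rule. Tsp42Ep averaged 1641, 2012, 1759 and 1631 bases in D17-c3 and 1429, 1330, 1376 and 1458 bases in S2-DRSC. It has a short annotated transcript of 951 bases and a long one of 2892 bases that runs on past the short one's 3′ end over Tsp42Eo, and these lengths correspond to a long form of 41.7% ± 9.14 in D17-c3 and 23.0% ± 2.94 in S2-DRSC. Since Tsp42Ep divides reads with Tsp42Eo, this share is uncertain.

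Tsp97E averaged 1838, 1820, 1808 and 1784 bases in D17-c3 and 1633, 1626, 1642 and 1640 bases in S2-DRSC, a difference of 10.9% of the S2-DRSC mean. Its 5 annotated transcripts run from 1433 to 2635 bases, so the D17-c3 mixture held more of the longer ones by this estimate. Tsp29Fa averaged 1072 bases in D17-c3 and 1000 bases in S2-DRSC, at few counts. S2-DRSC replicates 3 and 4 were both at 963 bases, the length of its shortest annotated transcript, with 11 counts each. Since Tsp29Fa divides reads with asRNA:CR46071, its average length is uncertain too. Tsp42Ed, whose count did not differ past the threshold, had transcripts of 886 and 1248 bases, and the longer form made up 9.37% ± 1.58 in D17-c3 and 5.22% ± 0.501 in S2-DRSC. Its average length stayed within the 5% limit. Counted without that limit, the lengths of 5 of the 17 members did not overlap between the lines, 4 longer in D17-c3 and Tsp42Ee longer in S2-DRSC by a fraction of a base, and 39.3% of all genes of varying length did not overlap. D17-c3 replicate 3 had the shortest average of all 8 libraries for Tsp86D (1504 bases, against 1636 to 1662 bases in the others of its line) and for Tsp96F (2840 bases, against 2994 to 3022 bases). Lengths were not tested, and gene annotation decides which forms can be told apart.

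**Figure D5:**
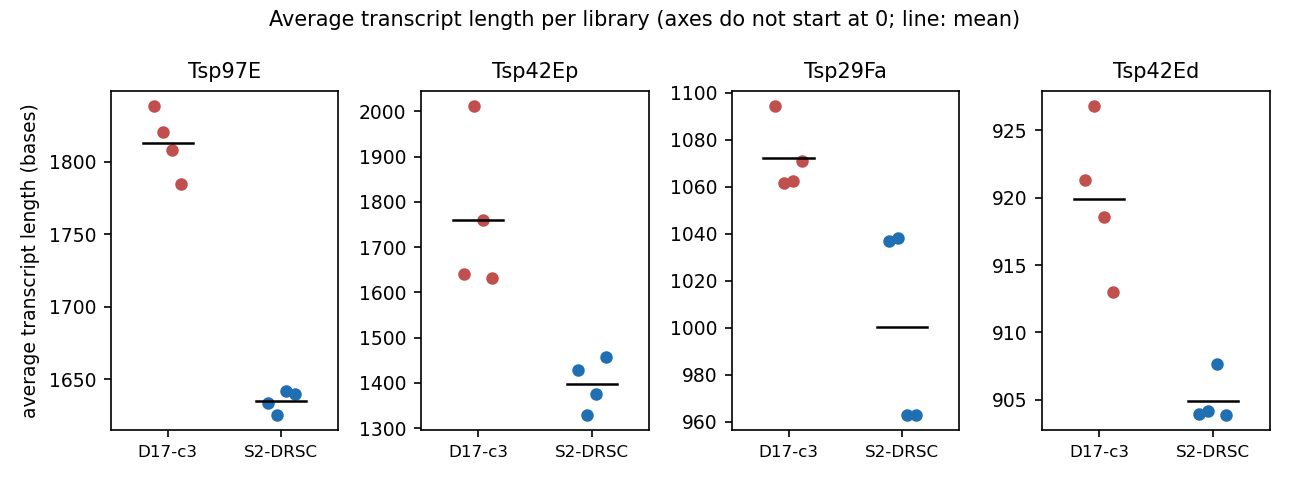
Average transcript length in bases, as deposited, of Tsp97E, Tsp42Ep, Tsp29Fa and Tsp42Ed in every library (points; lines are means of 4 libraries; the vertical axes do not start at 0 and differ between panels). In each panel the D17-c3 libraries lie above the S2-DRSC libraries, by 10.9% of the S2-DRSC mean for Tsp97E and with means of 920 and 905 bases for Tsp42Ed.

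Other partners of tetraspanins differed by gene, and no list was tested as a group. Of 7 integrin genes, the adhesion receptors that tetraspanins bind, 2 were higher in D17-c3, 1 was higher in S2-DRSC and 4 had no call, and the median was 0.07 on the log2 scale. The α subunit genes mew and if were higher in D17-c3 by 2.34 ± 0.18 and 1.71 ± 0.35, from 9.24 ± 0.814 and 1.86 ± 0.329 TPM in S2-DRSC to 55.0 ± 13.9 and 7.12 ± 3.19 TPM. The β subunit gene mys had 253 ± 38.3 and 211 ± 5.67 TPM and no call. Itgbn, the other β subunit gene, was higher in S2-DRSC by the count scale, with a log2 fold change of -0.46 ± 0.15 (edgeR adjusted p = 0.0216), a call that was lost without D17-c3 replicate 3.

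Of 10 genes of vesicle release and endosomal sorting, where tetraspanins are common cargo, 1 was higher in D17-c3, 6 were higher in S2-DRSC and 3 had no call, and the median was -0.60 on the log2 scale. Rab27, a GTPase of vesicle secretion, had 22.8 ± 2.43 TPM in D17-c3 and 12.2 ± 1.34 TPM in S2-DRSC (log2 fold change 0.66 ± 0.14). Rab11, the GTPase of recycling endosomes, had 252 ± 34.5 and 485 ± 11.9 TPM (log2 fold change -1.18 ± 0.07), and the SNARE gene Ykt6 had 55.0 ± 8.45 and 117 ± 3.26 TPM (log2 fold change -1.35 ± 0.06). The sorting genes Stam, Hrs, Vps4 and TSG101 were higher in S2-DRSC, with log2 fold changes from -0.86 ± 0.07 to -0.54 ± 0.06. In these lists 62.5% (ADAM and γ-secretase), 42.9% (integrins) and 70.0% (vesicle genes) of the tested genes were called, beside 75.2% of all genes. Over all tested genes, 39.1% were higher in D17-c3 and 36.1% higher in S2-DRSC, with a median of 0.04.

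Flasks of D17-c3 varied more than those of S2-DRSC, for tetraspanins as for other genes. The median coefficient of variation of the CPM was 20.1% in D17-c3 and 7.74% in S2-DRSC over the tested members, and 17.1% and 8.27% over all tested genes. Of the 25 members, 15 varied more in D17-c3 and the others more in S2-DRSC, among them low-count genes such as Tsp42A, Tsp42Ek and Tsp29Fa. The matching share over all genes was not computed, so this count is description only. D17-c3 replicate 2 was the highest or the lowest of its line for 21 of the 25 members (84.0%) and for 77.3% of all genes. Its part in the spread of single members was not tested beyond the fits without it.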

How the data were processed

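Libraries were made with a stranded mRNA kit from 4 flasks per line, per the labels' protocols, and grouped by the line in the labels. RSEM, STAR 2.7.3a, Trim Galore 0.6.4, DESeq2 1.30.1, Subread 2.0.0 and featureCounts appear, per the submitters' processing notes, together with dm6 and BDGP6 as builds, without roles. Per the file headers, the authors deposited RSEM gene tables with expected counts (estimated counts, 16.8% to 18.2% not whole), TPM, FPKM and lengths. Deposited TPM columns add up to 1000000, within 1, in each library, so depth is known only from the counts. FPKM as deposited was within 1% of the value computed from expected counts, for at least 99.95% of genes with 1 FPKM or more, and entered no test. The strand setting of the counting was not given in the sources used here. Since some expected counts were divided between genes on opposite strands, levels where such genes overlap are not taken as resolved by strand. Positions come from an Ensembl annotation of BDGP6 holding 17633 of the 17730 gene identifiers.

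After rounding, expected counts entered edgeR 4.0.16's quasi-likelihood test (TMM, filterByExpr with a minimum count of 10, all 8 libraries, design by line, Benjamini-Hochberg adjustment over 11606 genes, threshold 0.05), checked on simulated data. SEs equal the size of the log2 change divided by the root of F. CPM used TMM-scaled library sizes. Alternatives were median-of-ratios factors, library totals, other filters, DESeq2 1.42.0, limma 3.58.1 on log2(TPM + 1) and log2(TPM + 0.1), a replicate block, each library left out, and, chosen after seeing the data, the summing of genes that share reads and TMM scaling of summed TPM. Chi-square per degree of freedom between replicates was at least 8.18, so none agreed within sampling noise. Reads have no molecular identifiers, so limits for 0 counts cover counting error only. Any member, any gene of the related lists, markers and neighbours within the Tsp42E cluster could be named. Members and lists were chosen with earlier results of these data known.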

Additional observations from a re-analysis of the deposited data

Results flagged for a closer look

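In 5 of 112 groups of 4 libraries, the highest or lowest library lay far from the other three by Dixon's criterion, and chance flags about 1 in 20 groups. Tsp29Fa had 0.3 TPM in S2-DRSC replicate 1, beside 0.18 to 0.2 TPM in the other libraries of the line. Tsp42A had 0.14 TPM in D17-c3 replicate 3, beside 0.23 TPM in each of the others, all at low counts. Tsp42Eg had 0.47 TPM in D17-c3 replicate 1, beside 0.23 to 0.26 TPM. Tsp42Ej had 3.35 TPM in D17-c3 replicate 2, beside 2.04 to 2.26 TPM. ALiX, an endosomal sorting gene, had 88.63 TPM in S2-DRSC replicate 4, beside 99.7 to 102 TPM.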

How the results depend on the processing

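All 19 called members kept their direction and stayed past the threshold under each of 18 alternatives in which they were tested. With at least 1 CPM required in 4 libraries, 21 members were tested, and Tsp42Eb, Tsp42Ek, Tsp29Fa and Tsp42A were not. Of 445 alternative values of single members, 422 kept direction and side of the threshold, 15 passed it newly and 8 changed sign, all for members without a call. Sign changes were Tsp42Ed at 0.02 and Tsp42Ef at 0.01 with limma on either unscaled log2 TPM, and Tsp68C at -0.0049 without a filter and within -0.11 to 0.16 when 1 library was left out. Members higher in S2-DRSC numbered 13 without a filter on low counts, where Tsp42Ei, Tsp42Eo and Tsp42Eq (at most 8 counts in a library), Tsp42Ed and Tsp42Ef joined, and 13 with limma on TMM-scaled TPM. Leaving out 1 library gave 11 to 12 members higher in D17-c3 and 8 to 9 in S2-DRSC. Limma on unscaled TPM raised the share of calls higher in D17-c3 over all genes from 52.0% to 63.5% (pseudocount 1) and 63.9% (0.1), and gave 14 members higher in D17-c3 with 10 and 11 in S2-DRSC. The log2 ratio of summed TPM without Tsp42Ee went from 0.27 to -0.02 with TMM-scaled TPM, chosen after seeing the data. Tsp42Ee made up 63% of the family in S2-DRSC by expected counts, which are not per length. Integrins higher in S2-DRSC numbered 0 with library totals and with either unscaled TPM fit, 2 with DESeq2 and with the replicate block, and 0 to 3 when 1 library was left out (0 without D17-c3 replicate 3, 3 without D17-c3 replicate 2). ADAM and γ-secretase genes higher in S2-DRSC numbered 2 with TMM-scaled TPM. Those higher in D17-c3, 4 in the main fit, numbered 5 with either unscaled TPM fit and 6 with library totals. They numbered 3 with TMM-scaled TPM, without a filter, with the 1 CPM filter, and without S2-DRSC replicate 1, 2 or 4. Vesicle genes higher in D17-c3 numbered 2 with library totals, with the 1 CPM filter and with either unscaled TPM fit. Apart from settings that change the genes tested or leave out libraries, the cause of these shifts was not tested. Replicate numbers did not pair the libraries (correlations of same-numbered deviations from -0.039 to 0.115), and the replicate block gave 11 and 9 members, adding Tsp42Ef. Depth limits the 9 untested members and Tsp42A, and Tsp66A is also limited by the exon bases it shares with CG42660 and CG42661.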
